A study of Mus musculus with 11 samples.

Results

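The stem and progenitor surface markers are 10 genes whose proteins are used to sort or subdivide LSK cells, bone marrow cells that lack lineage antigens and carry Sca-1 and Kit. They are Kit, Ly6a, Slamf1, Cd48, Procr, Cd34, Flt3, Cd27, Esam and Tek. They were taken by gene symbol from the table of 9 arrays, where each of the 10 had 1 row, among 25523 rows that carry 1 symbol. The study compared LSK cells sorted from C57BL/6 mice labelled KLF5 KO with those labelled KLF5 WT, by total RNA hybridised to Affymetrix Mouse Gene 1.0 ST arrays, whose probes are spread over a transcript. The comparison set 4 knockout arrays (replicates 2 to 5) against 5 wild-type arrays (replicates 2 to 6). The descriptions of both groups name Mx1-Cre, so the controls carry the recombinase too. Mx1-Cre is driven by an interferon-inducible promoter and is active in many tissues besides blood. The sources used here give no age, sex, inducing treatment or number of mice behind an array. Replicate 1 of each genotype was normalized apart, as a pair of arrays, and is given beside the others without a test. All values are log2 signals from robust multi-array averaging (RMA), and a difference is always knockout minus wild type.

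The LSK fraction holds long-term stem cells together with multipotent progenitors that have begun to lose self-renewal. In the mouse, the most immature cells carry the SLAM receptor CD150 (Slamf1) and the endothelial protein C receptor (Procr) and lack CD48, CD34 and the receptor FLT3, which appear as cells move toward the progenitor state. Here Slamf1, Procr, Esam and Tek were set as the stem side, and Cd48, Cd34, Flt3 and Cd27 as the progenitor side. A shift between the compartments was taken to move the sides in opposite directions. Surface protein was not measured here, and in bulk RNA fewer cells of a type and less RNA per cell cannot be told apart.

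The arrays carried features other than genotype. Klf5, the targeted gene, lay between 6.58 and 6.76 in knockout and between 6.77 and 6.98 in wild type. The difference of Klf5 was -0.20 (95% interval -0.37 to -0.03) and did not pass adjustment (unadjusted p = 0.0279, limma adjusted p = 0.916). The sources used here do not place its probes relative to the deletion. Hbb-b1, a beta globin, lay between 9.08 and 10.63 in 4 arrays (replicates 2 and 5 of the knockout, replicates 2 and 6 of the wild type) and between 6.62 and 7.46 in the other 5. Of those 4, all but wild-type replicate 2 carried Xist together with Y-linked transcripts. Xist was not balanced between genotypes, with 9.59 to 11.12 in all 4 knockout arrays, 11.06 and 10.49 in wild-type replicates 5 and 6, and 4.74 to 5.47 in wild-type replicates 2 to 4. With Xist and Y-linked levels as covariates, 0 markers were at an unadjusted p under 0.05. Tek then differed by 0.308 (unadjusted p = 0.0679, limma adjusted p = 0.992), Cd48 by 0.506 (limma adjusted p = 0.992) and Slamf1 by 0.066 (limma adjusted p = 0.992). Medians of the negative-control rows were 5.27 to 5.62. All 10 markers exceeded the negative-control median of their array on 9 of 9 arrays. Kit and Cd34 also exceeded the 95th percentile of the negative controls on every array. Cd27 did so on 5 arrays, Flt3 on 4 and Cd48 on 1. Ly6a and the markers Slamf1, Procr, Esam and Tek did so on 0 of 9. That percentile was high, between 8.76 and 9.34, and Cd48 missed it on most arrays with a mean above 90.0% of all rows. The mean of Ly6a was above 81.3% of all rows. Those of Slamf1, Procr, Tek and Esam were above 62.2%, 57.5%, 50.2% and 43.0%, so these 4 were read nearer to background. Of 10 lineage antigens that the sort removes, 4 were above the negative-control median on all 9 arrays, among them Itgam, and Ly6g was below it on all 9.

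None of the 10 markers passed the threshold between genotypes, and no shift between the stem side and the progenitor side was resolved with 4 and 5 arrays. In the limma fit over 28944 transcript clusters, 0 of the 10 passed an adjusted p of 0.05, where 0% of all tested rows did, and the adjusted p of the markers ran from 0.916 to 0.985. Tek was the 1 marker at an unadjusted p under 0.05, with higher values in knockout, where 4.08% of all rows reached that level (1.45% higher in knockout and 2.63% lower). For 0 of the 10 markers were the groups free of overlap, where 0.985% of all rows were. Values were higher in knockout for 7 markers and lower for 3, with a median difference of 0.12, against a median of -0.02 over all rows. The 95% interval lay within a 2-fold change in either direction for 8 of the 10, and reached that size for Ly6a and Flt3. The plots of the signals by array and of the differences show these values.

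**Figure D1:**
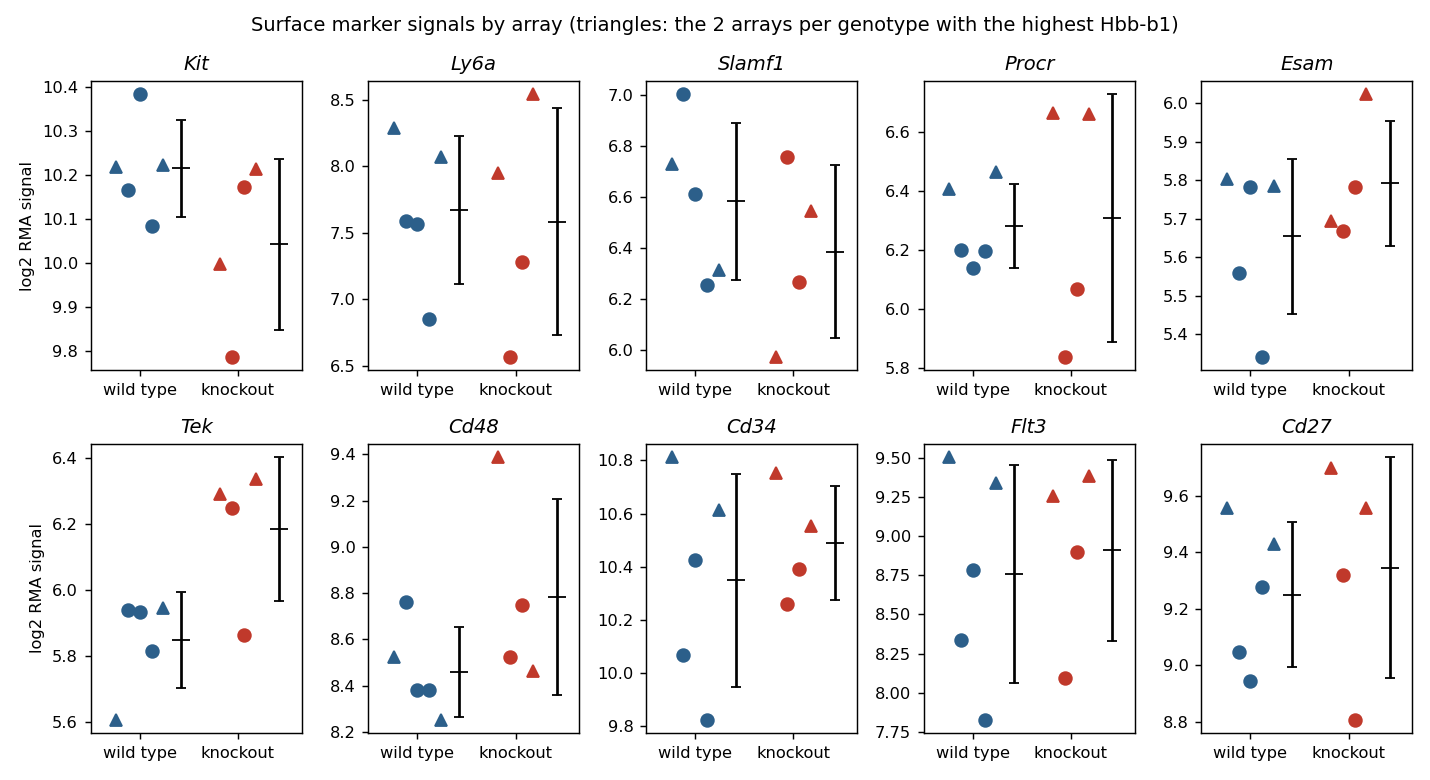
Log2 RMA signal of each marker (vertical axis, scaled per gene) in the 5 wild-type (blue) and 4 knockout (red) arrays. Triangles mark the 2 arrays per genotype with the highest Hbb-b1, and the black bar is the group mean with its SD. The groups overlap in all 10 panels.

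Kit and Ly6a encode the antigens of the sort itself. Kit is the receptor for stem cell factor, and Ly6a encodes Sca-1, a lipid-anchored surface protein of the Ly6 family whose transcript is raised by interferon. Kit read 9.998, 9.79, 10.17 and 10.21 in knockout replicates 2 to 5, and 10.22, 10.17, 10.38, 10.09 and 10.22 in wild-type replicates 2 to 6. Knockout replicates 2 and 3 were below every wild-type array and the remaining pair of knockout arrays lay among them. The difference was -0.17 (95% interval -0.40 to 0.06, limma adjusted p = 0.916), and it stayed below 0 in 24 of 24 alternative settings, between -0.233 and -0.087 (adjusted p 0.666 to 0.992). Some of these settings, named in the last section, could not change the estimate.

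Ly6a read 7.95, 6.57, 7.28 and 8.54 in the knockout arrays and 8.29, 7.59, 7.56, 6.85 and 8.07 in the wild-type arrays. The highest and the lowest of the 9 values were both knockout arrays, so the wild-type values lay inside the knockout range of 1.98 log2 units. The difference was -0.09 (95% interval -1.0025 to 0.83, limma adjusted p = 0.978). The spread of Ly6a within genotypes, an SD of 0.70, was larger than that of 97.7% of all rows, whereas the SD of Kit, 0.15, was larger than that of 38.4%. The 2 sort antigens thus differed in spread, with Kit held within 0.60 log2 units over the 9 arrays. Leaving out knockout replicate 5 moved the Ly6a difference to -0.406, and leaving out knockout replicate 3 moved it to 0.253, with the limma adjusted p over all alternatives between 0.69 and 0.999.

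The stem side is made up of Slamf1, Procr, Esam and Tek. Slamf1 encodes CD150, a self-binding receptor of the SLAM family that marks long-term stem cells when CD48 is absent. It read 5.97, 6.76, 6.27 and 6.55 in knockout and 6.73, 7.004, 6.61, 6.26 and 6.31 in wild type. Knockout replicate 2 was the lowest of the 9 arrays and wild-type replicate 3 the highest, and the other 7 overlapped. The difference was -0.20 (95% interval -0.63 to 0.24, limma adjusted p = 0.919), and without knockout replicate 2 it was -0.06, and without knockout replicate 3 it was -0.321.

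Procr encodes the endothelial protein C receptor, CD201, which binds protein C on endothelium and marks stem cells within LSK. It read 6.67, 5.84, 6.07 and 6.66 in knockout and 6.41, 6.20, 6.14, 6.20 and 6.47 in wild type. The 4 knockout arrays stood on both sides of the wild-type group, replicates 2 and 5 above all 5 wild-type arrays and replicates 3 and 4 below all 5. The means therefore differed by only 0.03 (95% interval -0.38 to 0.43, limma adjusted p = 0.985), from -0.093 without knockout replicate 2 to 0.183 without knockout replicate 3. The knockout SD was 0.42 (n = 4) and the wild-type SD 0.14 (n = 5), and no test was run on the spread.

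Esam encodes an immunoglobulin-family adhesion molecule of endothelium, platelets and stem cells. Its signals were 5.69, 5.67, 5.78 and 6.02 in knockout and 5.80, 5.56, 5.78, 5.34 and 5.79 in wild type. Only knockout replicate 5 was above every wild-type array. The difference was 0.14 (95% interval -0.13 to 0.41, limma adjusted p = 0.918), and the mean level of Esam was above that of 43.0% of all rows. The difference was 0.059 without wild-type replicate 5 and 0.060 without knockout replicate 5.

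Tek encodes TIE2, the receptor tyrosine kinase for angiopoietins, which is found on endothelium and on quiescent stem cells. It read 6.29, 6.25, 5.86 and 6.34 in knockout replicates 2 to 5 and 5.61, 5.94, 5.93, 5.82 and 5.95 in wild-type replicates 2 to 6. Knockout replicates 2, 3 and 5 were above all 5 wild-type arrays and knockout replicate 4 was among them. On 0 of 9 arrays did Tek exceed the 95th percentile of the negative controls. The difference was 0.34 ± 0.12 (SE), or 1.26-fold, with a 95% interval of 0.07 to 0.60. It did not pass adjustment (limma adjusted p = 0.916, unadjusted p = 0.0175). In the separately normalized pair, Tek read 7.38 in the knockout array and 7.12 in the other. Over the 24 alternatives, some of which could not change the estimate, the adjusted p lay between 0.718 and 0.992. The 9-array difference was above 0 in 24 of 24 and at an unadjusted p under 0.05 in 20 of them. It was 0.160 without the 2 arrays of each genotype with the highest Hbb-b1, 0.538 in those arrays alone, and 0.232 without the arrays that carry both Xist and Y-linked transcripts.

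Because TIE2 and ESAM are also endothelial proteins, endothelial and stromal genes were read beside them. All 12 genes of that list had lower values in knockout (median -0.08, 1 at an unadjusted p under 0.05), and 5 of the 12 were above the negative-control median on every array. Their mean level was 5.47 to 5.51 in knockout and 5.49 to 5.64 in wild type. Kdr, the main VEGF receptor of endothelium, was below the negative-control median on all 9 arrays, and Cdh5, the endothelial cadherin, differed by -0.19 (limma adjusted p = 0.916). Over all rows, 44.05% had higher values in knockout. The part of endothelial cells in the Tek and Esam values was not tested. Of the TIE2 ligands, Angpt1 had means of 10.66 in both genotypes, and Angpt2 differed by 0.24 (95% interval 0.00 to 0.48, limma adjusted p = 0.916).

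**Figure D2:**
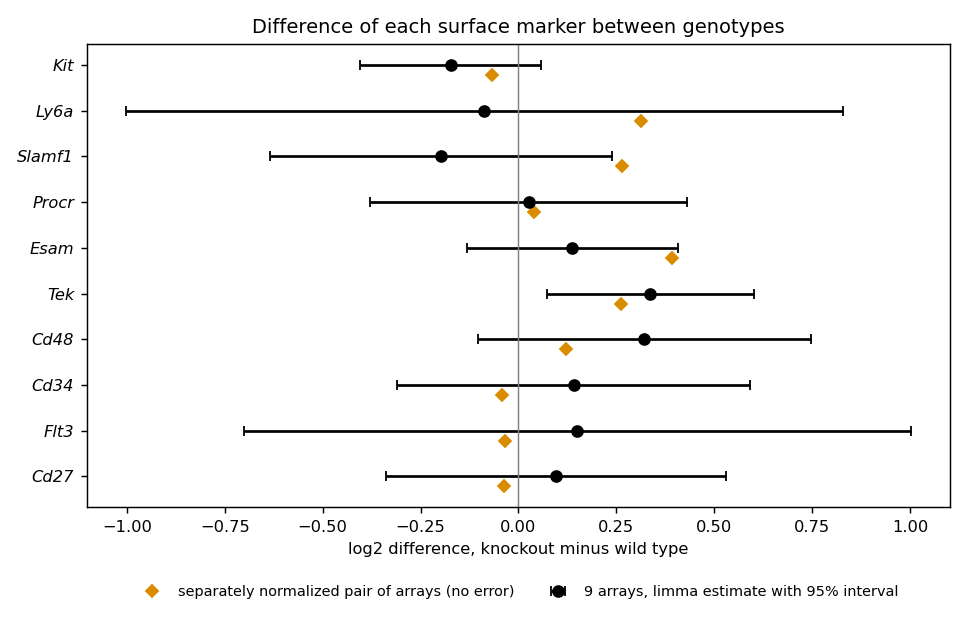
Log2 difference, knockout minus wild type, for each marker (horizontal axis). Black points with bars are the limma estimates from 4 knockout and 5 wild-type arrays with 95% intervals, and orange diamonds are the single difference of the separately normalized pair. Only the interval of Tek, 0.07 to 0.60, lies off 0.

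The progenitor side is made up of Cd48, Cd34, Flt3 and Cd27. Cd48 encodes a lipid-anchored SLAM family protein that binds CD244 and is absent from long-term stem cells. It read 9.39, 8.52, 8.75 and 8.46 in knockout and 8.52, 8.76, 8.38, 8.38 and 8.25 in wild type. Knockout replicate 2 was the highest of the 9 arrays, and the other 3 knockout arrays lay within the wild-type range. The difference was 0.32 (95% interval -0.10 to 0.75, limma adjusted p = 0.916), and 0.119 without knockout replicate 2. In RefSeq (GRCm38.p6) Cd48 and Slamf1 lie near each other on chromosome 1, with 1 protein-coding entry between them, and their differences had opposite signs in the 9 arrays.

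Cd34 encodes a sialomucin that appears on short-term stem cells and progenitors of adult mice. It read 10.75, 10.26, 10.39 and 10.55 in knockout and 10.81, 10.07, 10.43, 9.82 and 10.61 in wild type. All 4 knockout values lay inside the wild-type range. The difference was 0.14 (95% interval -0.31 to 0.59, limma adjusted p = 0.934), and 0.010 without wild-type replicate 5.

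Flt3 encodes a class III receptor tyrosine kinase, related to Kit, whose appearance on LSK cells accompanies loss of long-term repopulation and gain of lymphoid potential. It read 9.25, 8.10, 8.90 and 9.38 in knockout and 9.51, 8.34, 8.79, 7.83 and 9.34 in wild type. Here too the wild-type values enclosed all 4 knockout values, over 1.68 log2 units. The difference was 0.15 (95% interval -0.70 to 1.00, limma adjusted p = 0.961), and the SD within genotypes, 0.65, was larger than that of 97.0% of all rows. Without knockout replicate 3 the difference was 0.421, and without wild-type replicate 5 it was -0.082.

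Cd27 encodes a receptor of the tumour necrosis factor family that binds CD70 and is carried by most cells with short-term repopulating activity. It read 9.70, 9.32, 8.81 and 9.56 in knockout and 9.56, 9.05, 8.94, 9.28 and 9.43 in wild type. Knockout replicate 2 was the highest and knockout replicate 4 the lowest of the 9 arrays. The difference was 0.10 (95% interval -0.34 to 0.53, limma adjusted p = 0.949). It was -0.022 without knockout replicate 2 and 0.275 without knockout replicate 4.

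The balance of the compartments was read as the mean deviation of the 4 stem-side markers, each from its own mean over the 9 arrays, minus that of the 4 progenitor-side markers. It was -0.46, 0.24, -0.06 and 0.06 in knockout replicates 2 to 5, and -0.30, 0.28, 0.14, 0.23 and -0.12 in wild-type replicates 2 to 6. Both genotypes held arrays on either side of 0, and the knockout values spanned more than the wild-type ones. The 4 knockout arrays averaged -0.056 ± 0.295 (SD) and the 5 wild-type arrays 0.045 ± 0.25 (SD). The difference, -0.10, was smaller than the spread within either group, and with so few arrays a shift is not excluded. Since the markers were chosen with results of these arrays known, no p is given for this value. The sides did not hold together as units over the 9 arrays, by Pearson's r after the mean of each genotype was subtracted. Within the stem side r ran from -0.418 (Slamf1 and Procr) to 0.429 (Procr and Esam). Within the progenitor side it ran from 0.1 (Cd48 and Flt3) to 0.935 (Cd34 and Flt3). Across the sides it ran from -0.324 (Esam and Cd48) to 0.829 (Esam and Flt3). Both sides had higher means in knockout, by 0.08 on the stem side and 0.18 on the progenitor side. The 4 stem-side markers exceeded the 95th percentile of the negative controls on no array. Without knockout replicate 2 the balance difference turned to 0.033. In the separately normalized pair the knockout array exceeded the wild-type array by 0.24 on the stem side and by 0.00 on the progenitor side, which gives a balance difference of 0.24, opposite in sign.

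**Figure D3:**
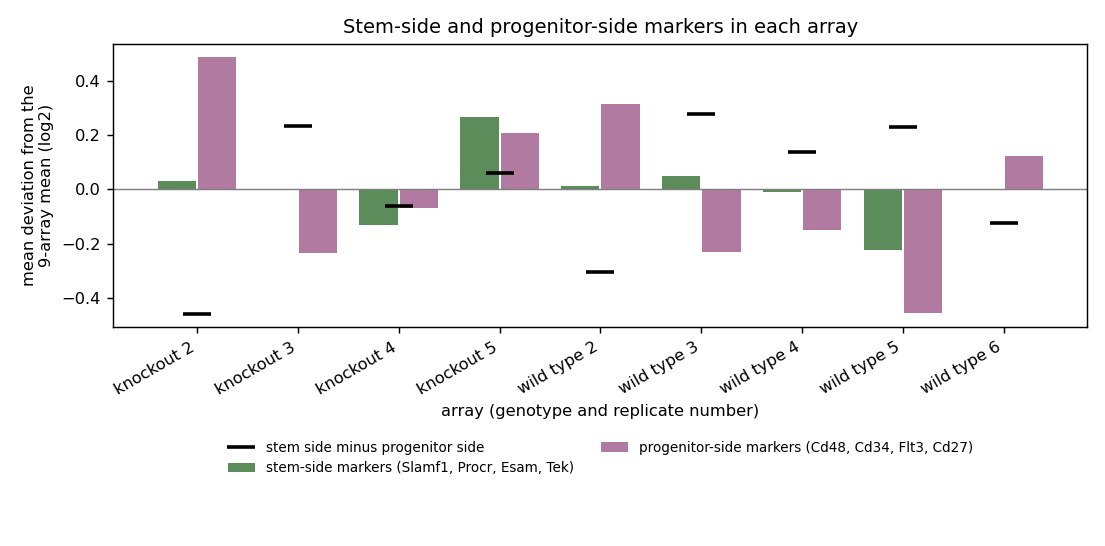
Mean log2 deviation of the stem-side markers (green bars) and of the progenitor-side markers (purple bars) from their 9-array means in each array, with the stem side minus the progenitor side as a black line. The black lines run from -0.46 to 0.24 in knockout and from -0.30 to 0.28 in wild type.

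The markers varied between arrays of both genotypes in a shared order. In Ly6a, Procr, Cd34, Flt3 and Cd27 the 4 arrays with the highest Hbb-b1 (knockout replicates 2 and 5, wild-type replicates 2 and 6) were all above the other 5 arrays, which was so for 5 of the 10 markers and for 3.13% of all rows. For Flt3 those 4 arrays began at 9.25 and the others ended at 8.90. For Ly6a the corresponding values were 7.95 and 7.59, and for Cd34 they were 10.55 and 10.43. Cd34, Flt3 and Cd27 are progenitor-side markers, Procr is a stem-side marker and Ly6a belongs to neither. The mean of the progenitor-side markers was 9.408 to 9.774 in the 4 arrays and 8.827 to 9.213 in the others, without overlap. That of the stem-side markers was 6.128 to 6.392 and 5.903 to 6.176, with overlap. Each genotype supplied 2 of the 4 arrays. The plot with arrays ordered by Hbb-b1 shows it beside Kit, Slamf1, Esam, Tek and Cd48, which did not follow it.

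The means of some gene lists were also higher in the same 4 arrays, and those of others were lower or overlapped. The mean of 12 interferon response genes was 6.05 to 6.35 in them and 5.77 to 6.03 in the others. That of 7 other SLAM family genes was 6.008 to 6.144 and 5.638 to 5.962, with no overlap in either list mean. Gene by gene, the 4 arrays were all above the others for 3 of the 12 interferon genes and 0 of the 7 SLAM genes. Of these genes, 6 of the 12 and 4 of the 7 were above the negative-control median on every array. The erythroid list overlapped slightly, with 5.867 to 6.32 in the 4 arrays and 5.596 to 5.874 in the others. Mast cell and basophil genes overlapped too and lay mostly lower in the 4 arrays, with 5.833 to 6.229 against 6.21 to 7.052. The mean of 9 other Ly6 genes was wholly lower in the 4 arrays, with 5.967 to 6.127 against 6.185 to 6.356. That of 16 other progenitor surface genes was 6.771 to 6.954 in the 4 arrays and 6.861 to 6.954 in the others. For 0 of those 16 genes were the 4 arrays all above the others, unlike Cd34, Flt3 and Cd27. The part of these lists in the marker values was not tested. By genotype, the interferon list mean was 5.87 to 6.26 in knockout and 5.77 to 6.35 in wild type, with 7 of 12 genes higher in knockout and a median of 0.07. Without those 4 arrays the differences were -0.413 for Ly6a, 0.183 for Flt3, 0.220 for Cd34, -0.227 for Procr and -0.026 for Cd27, and none of the 10 markers passed (lowest limma adjusted p = 0.634).

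**Figure D4:**
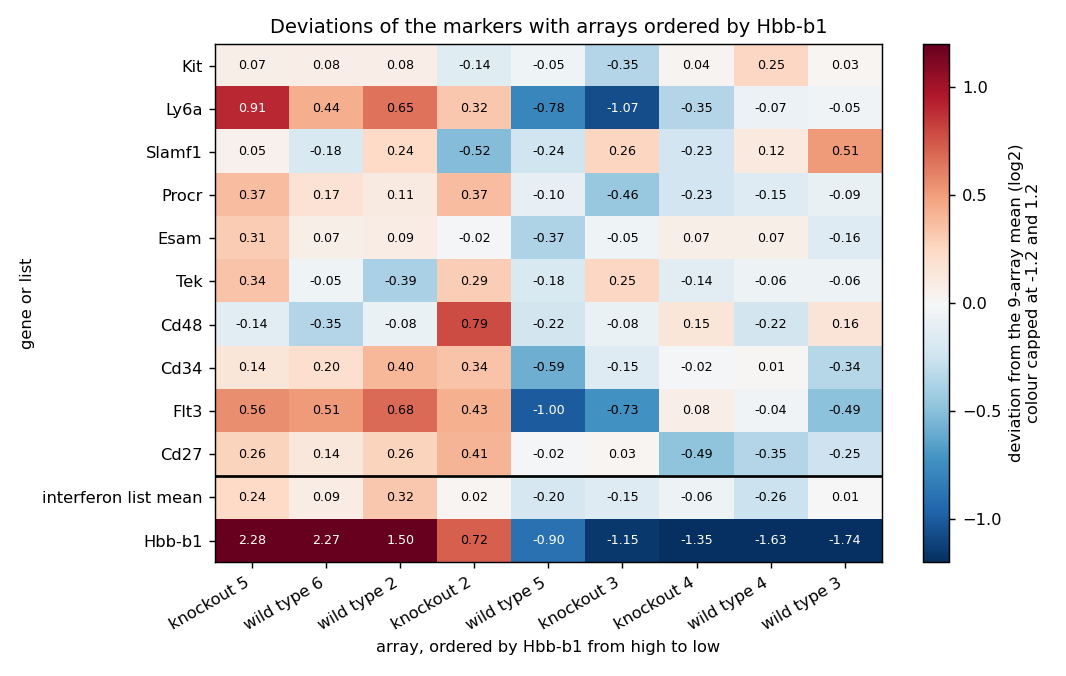
Log2 deviation of each marker from its 9-array mean (printed numbers and colour, capped at -1.2 and 1.2), with the 9 arrays ordered from the highest to the lowest Hbb-b1. Below the line stand the mean of the interferon list and Hbb-b1 itself. Ly6a, Procr, Cd34, Flt3 and Cd27 are above their means in the first 4 columns.

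The sequences before the start sites were read for the short core that KLF factors bind, since Klf5 is the factor that was deleted. RefSeq's promoter table (GRCm38.p6) held 8 of the 10 markers, Ly6a and Esam being the others. In the 250 bases upstream, the letters CACCC on either strand occurred in 6 of the 8, and in 52.0% of all 32851 promoters of that length. For factors of the GATA family the letters searched were GATAA, found in 1 of the 8 and in 22.6% of all promoters. For RUNX factors they were TGTGGT, found in 1 of the 8 and in 4614 of all promoters. For ETS factors they were CCGGAA, found in 0 of the 8 and in 3952 of all promoters. No matches overlapped. Shown are Tek, the marker with the smallest p, on the plus strand of chr4:94739039-94739288, and 2 of the 5 markers that shared the array order, Cd34 on the plus strand of chr1:194938571-194938820 and Flt3 on the minus strand of chr5:147400490-147400739. They are written 5′ to 3′ with matches to the 4 cores in capitals.
Tek: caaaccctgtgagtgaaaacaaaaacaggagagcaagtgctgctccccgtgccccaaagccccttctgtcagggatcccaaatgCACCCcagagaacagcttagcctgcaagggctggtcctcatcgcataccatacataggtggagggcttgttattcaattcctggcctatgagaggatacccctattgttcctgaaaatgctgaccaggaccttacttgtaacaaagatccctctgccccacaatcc
Cd34: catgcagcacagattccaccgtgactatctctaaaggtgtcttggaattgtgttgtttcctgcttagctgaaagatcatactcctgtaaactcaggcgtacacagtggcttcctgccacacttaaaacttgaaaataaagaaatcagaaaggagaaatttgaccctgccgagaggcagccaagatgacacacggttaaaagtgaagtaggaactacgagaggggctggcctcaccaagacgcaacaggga
Flt3: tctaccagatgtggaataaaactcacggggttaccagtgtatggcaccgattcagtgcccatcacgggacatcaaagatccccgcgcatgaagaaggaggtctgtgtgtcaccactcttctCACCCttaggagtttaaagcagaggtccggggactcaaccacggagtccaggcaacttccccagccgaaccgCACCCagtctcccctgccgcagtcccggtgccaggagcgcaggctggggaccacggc
Tek held 1 match to CACCC, Flt3 held 2, and Cd34 held no match to any of the 4 cores in this window. A match here describes letters and not a bound site.

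Wider lists of the same compartments were read for their counts. Of 16 other surface genes of stem cells, 9 had a positive and 7 a negative difference, the median being 0.03. Among them Cd9, a tetraspanin, differed by 0.33, Eng, a TGF-beta co-receptor, by -0.17 and Adgrg1, an adhesion G protein-coupled receptor, by -0.34. Of 16 other progenitor surface genes, the difference was positive for 5 and negative for 11, the median being -0.05, against the positive differences of all 4 progenitor-side markers. Il7r, the interleukin-7 receptor chain of lymphoid progenitors, differed by -0.35 and Il3ra, a chain of the interleukin-3 receptor, by -0.07. Il7r was above the negative-control median on only 2 of 9 arrays. No gene of either list passed, and none was at an unadjusted p under 0.05.

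Of 19 stem cell genes that act inside the cell or are secreted, 11 had a positive and 8 a negative difference, the median being 0.02. Hlf, a stem cell transcription factor, differed by -0.34, Mllt3 by 0.32 and Cdkn1c, the inhibitor of the cell cycle p57, by -0.13. Here too 0 genes passed and 0 were at an unadjusted p under 0.05.

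Ligands and signalling partners of the markers gave no call either. Of 13 ligands and binding partners, 5 had higher and 8 lower values in knockout (median -0.04). Kitl and Cd70 were below the negative-control median on all 9 arrays, whereas Flt3l, Angpt1 and Cd244a, which encodes the receptor for CD48, were above it on all 9. Of 22 signalling genes downstream of these receptors, 14 had higher and 8 lower values (median 0.05). The Src-family kinases Lyn and Fyn differed by 0.36 (unadjusted p = 0.045, limma adjusted p = 0.916) and 0.37 (unadjusted p = 0.0512, limma adjusted p = 0.916), and the phosphatase gene Ptpn11 by 0.41.

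The relatives of the markers showed no shared movement past the threshold. Of 7 other SLAM family genes, 2 had higher and 5 lower values in knockout (median -0.13), and 4 of the 7 were above the negative-control median on all arrays. Slamf9 differed by -0.21, Slamf8 by -0.23 and Slamf6 by -0.25, with limma adjusted p of 0.916 for each. The knockout and wild-type means of Slamf8 (4.98 and 5.21) and Slamf6 (4.25 and 4.50) were under every negative-control median. Of 9 other Ly6 genes, 3 were higher and 6 lower (median -0.04), with Ly6e at -0.13. Probes of Ly6a could share signal with its close relatives, and this was not tested.

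Markers of other blood cells were read in the same way, and 0 of their genes passed. Of the B cell genes, 9 of 10 had lower values in knockout (median -0.24), and 5 of 10 were above the negative-control median on all arrays. Cd79a differed by -0.48, with means of 4.31 in knockout and 4.79 in wild type, under every negative-control median. The mean level of the B cell list was 5.39 to 5.56 in knockout and 5.55 to 5.99 in wild type. Of the neutrophil granule genes, 9 of 10 had higher values (median 0.12, Ctsg at 0.62, limma adjusted p = 0.916). Of 8 mast cell and basophil genes, 6 were also higher (median 0.09, Mcpt8 at 0.73, limma adjusted p = 0.916). In these lists 5 of 10 and 5 of 8 genes were above the negative-control median on all arrays, and 0 were at an unadjusted p under 0.05. Of 7 megakaryocyte genes 4 were higher (median 0.05). Erythroid genes were split 5 and 5 (median -0.01), as were the lineage antigens (median -0.03), where Klrb1c differed by 0.30 and Cd8a by -0.23. Klrb1c had means of 4.25 in knockout and 3.94 in wild type, also under every negative-control median. Mast cells also carry Kit, and B and myeloid cells carry Cd48. The part of such cells in the marker values was not tested.

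Some genes followed single markers closely across the arrays. Likeness was measured as Pearson's r over the 9 arrays after the mean of each genotype was subtracted, among 13357 rows above the median level. The highest of so many r values are high by choice, so they are given as a description. Kit was most like Chic2 (r = 0.976), and in RefSeq (GRCm38.p6) 2 protein-coding genes lie between them on chromosome 5. Flt3 was most like Cpsf2 (0.989) and Satb1 (0.984), Cd34 like Trip11 (0.983) and Ly6a like Cd274 (0.978) and Sptbn1 (0.975). Procr was most like Ift74 (0.986), Esam like Ankrd13a (0.979), Slamf1 like Phka2 (0.973), Cd27 like Efcab7 (0.967), Cd48 like Zfand3 (0.965) and Tek like Ifitm7 (0.946). For Flt3, Cd34, Ly6a, Procr and Cd27 the shared order of the arrays described above enters these values.

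In the separately normalized pair of arrays, levels of the markers cannot be set against those of the 9 arrays, and only the difference within the pair is given. It was 0.39 for Esam, 0.31 for Ly6a, 0.26 for Slamf1, 0.26 for Tek, 0.12 for Cd48 and 0.04 for Procr. It was -0.07 for Kit and -0.04, -0.03 and -0.04 for Cd34, Flt3 and Cd27. The sign was that of the 9 arrays for 5 of the 10, namely Kit, Cd48, Procr, Esam and Tek. There is 1 array per genotype in the pair, so these differences have no replicate check.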

How the data were processed

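The authors deposited log2 RMA signals in a table of 9 arrays and a table of 2 arrays, normalized separately. Per the file headers the signals are those of the gene-level RMA default. Affymetrix Expression Console is named in the submitters' processing notes without a version. A deposited table of log2 values of all 11 samples equalled the RMA columns within 5e-05 and gave each array its replicate number, since the numbers in the column names differ from those of the labels. Genotypes in names and labels matched.

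Of 35556 rows, 6612 control rows were left out and 28944 tested. Symbols were updated through RefSeq accessions (GRCm38.p6), which matched 22169 rows. Each marker had 1 row. Knockout and wild type were compared within the 9-array table by lmFit and eBayes of limma 3.58.1 (R 4.3.3) without covariates. Two-sided p-values were adjusted by Benjamini-Hochberg over the 28944 rows, with a threshold of 0.05. The median standard error was 0.116, arrays carry no read depth, and their number limits the precision. The labels do not say that arrays are separate animals, so the spread behind each p-value is that between these samples and may be technical. Alternatives were other normalizations and value sources, all 11 arrays, a filter on dim rows, other variance models, the methods' t-test, blocks, covariates and sets of arrays left out.

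The text names the 10 markers, some of the 3 genes of smallest p per list, and the 1 or 2 rows most like each marker, with Klf5, Xist, Y-linked genes and Hbb-b1 as array checks. Ligands and endothelial and lineage genes given by their position against the negative controls were chosen after their values were seen. The markers, lists and tests were chosen with earlier results of these data known, so the counts over them are descriptions. Figures were drawn with matplotlib 3.10.9.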

Additional observations from a re-analysis of the deposited data

Results flagged for a closer look

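The 9 arrays were screened for an array far from the others of its genotype in each of the 10 markers and in the balance of stem-side and progenitor-side markers. Of the 22 groups of 4 or 5 arrays screened, 0 held such an array, where chance gives about 1 in 20.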

How the results depend on the processing

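The counts of markers and of transcript clusters past the adjusted threshold were 0 in all 24 alternatives, among them the methods' t-test, which had 1150 clusters at an unadjusted p under 0.05 and 0 after Benjamini-Hochberg adjustment, against 1181 in limma. That unadjusted count was 2306 without the 4 arrays of highest Hbb-b1, 726 in those arrays alone and 1850 without the arrays with both Xist and Y-linked transcripts. Median centring of the arrays turned its split from 420 higher and 761 lower to 695 and 445. The signs of Kit, Cd48, Esam and Tek were kept in all 24 alternatives, but some of these could not change an estimate. The deposited log2 values, the mean over a marker's rows and the filter on dim rows returned the main estimates. So did the t-test and the variance model with a trend and robust fit. The block by title number repeated the estimates without wild-type replicate 6, and the block by column number those without wild-type replicate 3.

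Signs turned elsewhere, in differences that never passed, and the cause was not tested. With array weights Procr was -0.105, Cd34 -0.054, Flt3 -0.180 and Cd27 -0.075. With Xist and Y-linked levels as covariates Ly6a was 0.112, Slamf1 0.066 and Procr -0.004. Without the arrays with both Xist and Y-linked transcripts Procr was -0.284, Flt3 -0.114 and Cd27 -0.142, and without the 4 arrays of highest Hbb-b1 Procr was -0.227 and Cd27 -0.026. In those 4 arrays alone Ly6a was 0.070, Cd34 -0.059 and Flt3 -0.103. With each array left out in turn, Ly6a ran from -0.406 to 0.253, Procr from -0.093 to 0.183, Flt3 from -0.082 to 0.421 and Cd27 from -0.022 to 0.275.

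Replicate numbers of the titles were not used as pairs in the main fit. Deviations of same-numbered arrays correlated at 0.133, 0.11, 0.12 and -0.242, and those of differently numbered arrays at -0.247 to 0.404. So few correlations cannot show whether the samples were paired. With the number as a replicate block 0 markers passed, Ly6a was 0.012 and Tek 0.362. The balance difference, -0.102, was -0.143 with this block and lay between -0.199 and 0.033 with each array left out. It was above 0 without knockout replicate 2. The SD within groups was 0.27, but leaving out 1 array cannot move a group mean by that much, so it is no measure of these shifts. The numbers in the column names give partly other pairs, which correlated at 0.133, 0.066, 0.121 and 0.404, all above 0. The first, of the arrays without a number, is replicate 2 of each genotype and so is also a pair by title. The last, knockout replicate 5 with wild-type replicate 6, was the highest of any knockout and wild-type array. Whether these pairs share a batch was not tested. With those numbers as a replicate block, Cd48 was 0.397 (unadjusted p = 0.0315, limma adjusted p = 0.916), 2 markers, Cd48 and Tek, were at an unadjusted p under 0.05, and the balance difference was -0.043. This block and the fit of the 4 arrays of highest Hbb-b1 alone were chosen after seeing the data.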
